A study of Mus musculus with 14 samples.

Results

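Myostatin and activins are secreted growth factors of the TGF-beta superfamily that restrain the growth of skeletal muscle. The 10 genes described here encode 3 ligand chains (Mstn, Gdf11 and Inhba), 3 receptor chains (Acvr2a, Acvr2b and Acvr1b) and 4 Smad proteins (Smad2, Smad3, Smad4 and Smad7) of this branch. They were taken by gene symbol, and all 10 were found among the 24359 genes used. RNA was sequenced from the tibialis anterior muscle, which lifts the foot, of C57Bl/6 mice. At day 3 there were 4 follistatin libraries and 3 control libraries. At day 7 there were 2 of each, and at day 14 there were 2 follistatin libraries and 1 control library. Days 7 and 14 were pooled as a late set of 4 against 3, as the series' design pools them. The labels give the treatment only as follistatin or control. The route and vehicle of follistatin, the handling of the controls and the age of the mice are not in them. Nor do they say whether replicates were separate animals, so a p-value here rests on the spread between libraries, which may be technical.

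The pathway begins outside the cell, where follistatin binds myostatin, GDF11 and activins and keeps them from their receptors. A free ligand binds a type II receptor (ACVR2A or ACVR2B), which then activates a type I receptor (ACVR1B, also called ALK4, or TGFBR1, also called ALK5). The type I receptor phosphorylates SMAD2 and SMAD3, which join SMAD4 and act on genes in the nucleus. SMAD7 is an inhibitory Smad whose gene is induced by the pathway and whose protein blocks the type I receptors. The comparison asks whether mRNA of these components differed between follistatin-treated and control muscle. Binding of the ligands was not measured.

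Levels are FPKM (fragments mapped to a transcript, scaled to its length and to the mapped fragments of the library) as the authors computed them, a scale on which genes can be compared per length. Differences are follistatin minus control on log2(FPKM + 1), tested two-sided with limma. Called means an adjusted p under 0.05 (Benjamini-Hochberg, over all genes tested), and a gene was tested where it averaged 1 FPKM or more in a set. Of the 10 genes, 9 passed this filter in each set and Inhba did not.

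FPKM summed to between 485755 and 532859 in the control libraries of both sets, to between 486377 and 515812 in the follistatin libraries of day 3, and to between 364513 and 433552 in those of days 7 and 14. These sums are not on 1 footing, because some abundant genes are listed at 0. Of 8 myofibre markers, 8 are at 0 in every late follistatin library and 5 in every late control. At day 3 the counts are 1 with follistatin and 0 in the controls. Read totals are not in the files. At day 3 the steps between low values gave relative depths of 0.683 to 1.27 of control replicate 1. In the late set only 51.6% to 62.6% of the low values lay on such steps, so relative depth is not given there. Of the late libraries, control day 7 replicate 1 stood apart with 16158 genes above 0, where the rest had 19383 to 20283. Fst mRNA, which marks the treatment, lay at 1.01 to 1.42 FPKM in the controls of day 3 and at 49.7 to 67.8 FPKM in the follistatin libraries. The late values were 0.808 to 1.17 FPKM against 367 to 1421 FPKM. Limma called 168 of 11268 genes at day 3, and in the late set 247 of 11047 higher and 361 lower. That late split was 389 higher and 239 lower after rescaling by the median ratio, and 414 and 326 with quantile normalization.

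The start-site sequences of the pair of ligand genes that stood higher with follistatin and of the pair of receptor genes that fell in the late set are shown because their changes are the ones described most closely here. Each runs from 250 bases before to 50 bases after the gene's RefSeq start on GRCm38.p6, 5′ to 3′ on the gene's strand. The gene positions given further below are from GENCODE, whose starts differ from these for Acvr1b and Acvr2b. Capitals mark AGAC or its reverse complement GTCT, the core letters of the Smad-binding element. The windows are chr1:53061390-53061689 on the plus strand for Mstn, chr10:128891669-128891968 on the minus strand for Gdf11, chr15:101173822-101174121 on the plus strand for Acvr1b, and chr9:119401928-119402227 on the plus strand for Acvr2b.
Mstn: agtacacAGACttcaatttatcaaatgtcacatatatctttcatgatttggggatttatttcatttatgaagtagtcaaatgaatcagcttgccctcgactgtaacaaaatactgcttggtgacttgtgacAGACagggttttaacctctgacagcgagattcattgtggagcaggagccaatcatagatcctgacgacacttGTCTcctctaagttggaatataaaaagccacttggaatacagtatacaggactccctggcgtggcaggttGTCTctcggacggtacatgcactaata
Gdf11: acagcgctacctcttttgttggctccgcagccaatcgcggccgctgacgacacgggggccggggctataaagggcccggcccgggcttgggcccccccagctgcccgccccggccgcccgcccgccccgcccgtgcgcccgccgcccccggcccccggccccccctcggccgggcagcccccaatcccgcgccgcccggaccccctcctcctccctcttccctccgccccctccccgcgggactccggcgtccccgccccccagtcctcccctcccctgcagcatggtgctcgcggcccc
Acvr1b: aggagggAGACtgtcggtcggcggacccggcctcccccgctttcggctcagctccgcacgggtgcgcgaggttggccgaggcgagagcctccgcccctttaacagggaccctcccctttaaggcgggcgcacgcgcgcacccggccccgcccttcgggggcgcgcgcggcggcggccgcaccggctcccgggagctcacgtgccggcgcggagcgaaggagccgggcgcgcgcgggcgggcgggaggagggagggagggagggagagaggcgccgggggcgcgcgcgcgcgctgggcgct
Acvr2b: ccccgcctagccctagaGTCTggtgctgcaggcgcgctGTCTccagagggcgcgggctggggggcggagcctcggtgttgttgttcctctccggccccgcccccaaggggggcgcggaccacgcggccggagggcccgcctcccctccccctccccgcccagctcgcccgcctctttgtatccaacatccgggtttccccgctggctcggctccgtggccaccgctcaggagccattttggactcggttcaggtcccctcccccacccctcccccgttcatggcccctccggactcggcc
The core letters AGAC, searched on both strands, matched 4 times in the window of Mstn, 2 times in that of Acvr2b, 1 time in that of Acvr1b and 0 times in that of Gdf11. Among windows searched but not printed, that of Acvr2a, which was not called, held 3 matches, and those of Inhba and Smad3 held 1 each. At least 1 match lay in 88.0% of the 32851 windows of this length, a share that does not tell whether 4 matches are many. The E-box letters CANNTG, which MyoD-family factors recognise, matched 4 times in Mstn, 1 time each in Gdf11 and Acvr1b, and 0 times in Acvr2b, against 72.3% of all windows with at least 1. The TATA-box letters TATAAA matched 1 time each in Mstn and Gdf11 and 0 times in Acvr1b and Acvr2b, and 13.6% of all windows held a match. G and C made up 41.3% of the window of Mstn but 80.7%, 79.7% and 73.3% of those of Gdf11, Acvr1b and Acvr2b, where the median over all windows was 52.7%. The match lay 29 bases before the start in Mstn and 185 before it in Gdf11 (positions -29 and -185, with the start as 0). The ligand pair differed widely in base composition, and the matches are letters only, not measured binding sites. Of the 10 genes 7 were looked up in the sequence table, and only these 4 windows are printed.

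**Figure D1:**
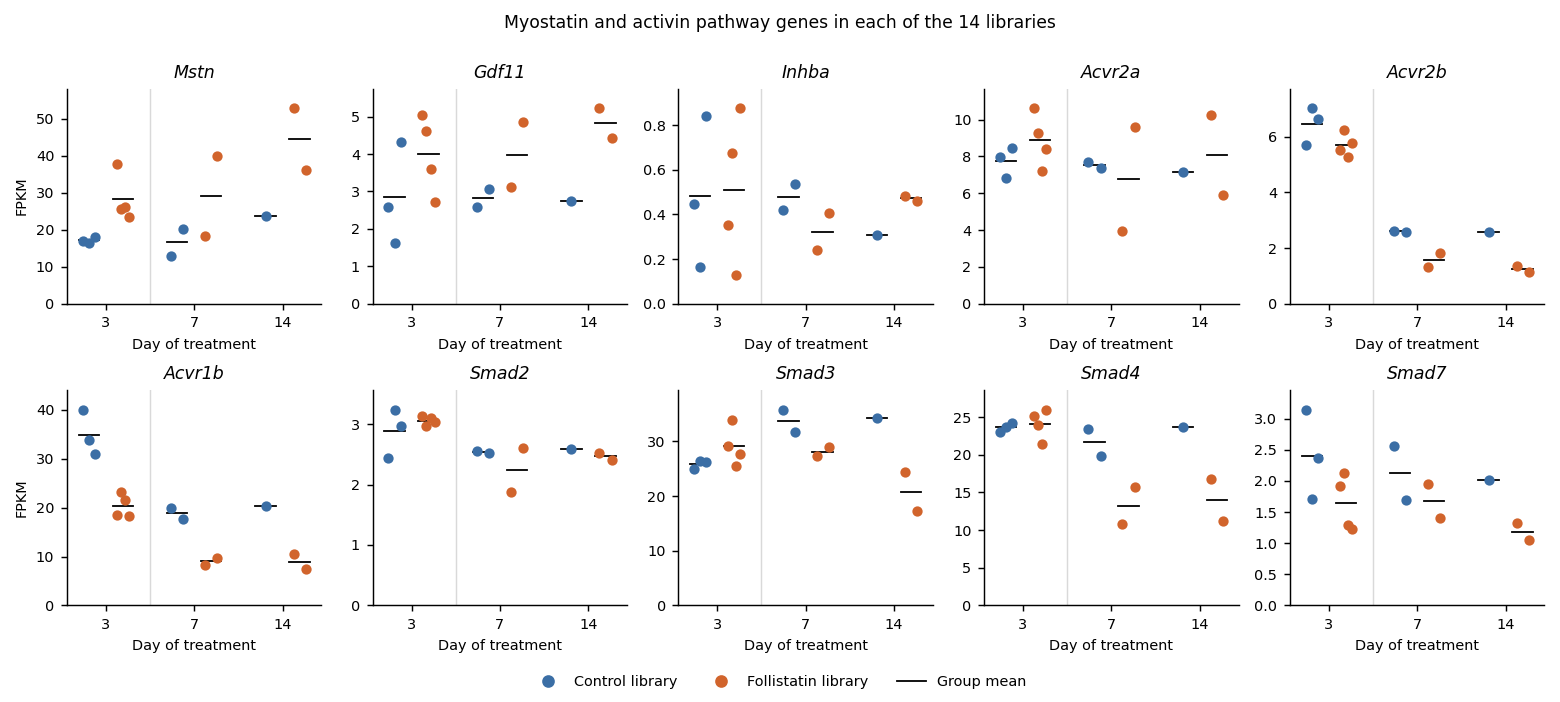
FPKM of each of the 10 genes (vertical axes, each from 0) by day of treatment, with 1 point per library (blue, control; orange, follistatin) and a line at each group's mean. Acvr1b is the only gene whose follistatin points lie below all controls of the same set at day 3 (18.4 to 23.1 against 31.0 to 40.0 FPKM) and again at days 7 and 14 (7.37 to 10.5 against 17.7 to 20.4 FPKM).

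The type I receptor gene Acvr1b was lower with follistatin in both sets. Its product ACVR1B is a signalling kinase shared by activins, myostatin and GDF11. The gene lies on chromosome 15 (GRCm38, 101174067 to 101213684, plus strand). At day 3 the 3 controls held 40.0, 33.7 and 31.0 FPKM and the 4 follistatin libraries 18.5, 23.1, 21.5 and 18.4 FPKM. All follistatin libraries lay below all controls. The means were 34.9 ± 4.60 FPKM (SD, n = 3) and 20.4 ± 2.35 FPKM (SD, n = 4), 1.71-fold lower, with a log2 difference of -0.75 (SE 0.12, limma adjusted p = 0.0196). The late controls held 19.9 and 17.7 FPKM (day 7) and 20.4 FPKM (day 14). Follistatin libraries of day 7 held 8.33 and 9.73 FPKM, and those of day 14 held 10.5 and 7.37 FPKM. Again no library overlapped, and both days of follistatin lay in the same range. The late means were 19.4 ± 1.44 FPKM (SD, n = 3) and 8.996 ± 1.42 FPKM (SD, n = 4), 2.15-fold lower, with a log2 difference of -1.03 (SE 0.13, limma adjusted p = 0.00991). The call at day 3 ended without control replicate 1 (log2 difference -0.65, limma adjusted p = 0.084), control replicate 2 (-0.77, 0.0793) or follistatin replicate 1 (-0.71, 0.0582). The late call ended without control day 7 replicate 1 (-1.01, limma adjusted p = 0.0734), without control day 14 replicate 1 (-0.997, 0.0558) and with the day 7 libraries alone (-0.98, 0.133).

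The type II receptor gene Acvr2b fell in the late set. ACVR2B is the receptor that myostatin binds most readily, and its gene lies on chromosome 9 (119402118 to 119434995, plus strand). The late controls held 2.62, 2.58 and 2.56 FPKM, a spread of 0.0314 FPKM (SD, n = 3). The follistatin libraries held 1.33 and 1.82 FPKM (day 7), then 1.35 and 1.14 FPKM (day 14), all below the controls. The means were 2.59 and 1.41 ± 0.288 FPKM (SD, n = 4), 1.84-fold lower. The log2 difference was -0.58 (SE 0.13, limma adjusted p = 0.0424), which the added 1 makes smaller than the ratio of the means. With a pseudocount of 0.1 it was -0.85. At day 3 Acvr2b stood at 5.72, 7.03 and 6.66 FPKM in the controls and at 5.54, 6.23, 5.29 and 5.80 FPKM with follistatin. Those groups overlapped, and the difference did not pass (log2 difference -0.15, 95% confidence interval -0.38 to 0.07, limma adjusted p = 0.524). The late call was close to the threshold and ended without 6 of the 7 libraries taken 1 at a time (limma adjusted p of 0.0515 to 0.195), held without follistatin day 7 replicate 2 (0.0385), and ended with no filter on low values (0.0856), with day as a covariate (0.0543) and with the day 7 libraries alone (0.311).

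The other type II receptor gene, Acvr2a, showed no called difference. Its product binds activins with high affinity, and the gene lies on chromosome 2 (48814109 to 48903269, plus strand). It shares 446 exon bases with Orc4 on the opposite strand, and the strand setting of the counting is not stated. At day 3 the controls ranged from 6.81 to 8.45 FPKM and the follistatin libraries from 7.18 to 10.6 FPKM (log2 difference 0.17, 95% confidence interval -0.13 to 0.47, limma adjusted p = 0.599), and 0.09 to 0.25 with 1 library left out. The late controls lay close together, from 7.13 to 7.72 FPKM. The late follistatin libraries held 3.95 and 9.60 FPKM (day 7), then 10.2 and 5.91 FPKM (day 14), on both sides of the controls. Their log2 difference was -0.07 (95% confidence interval -0.71 to 0.56, limma adjusted p = 0.876), an interval too wide to show that the level stayed the same. The SD over the late follistatin libraries was 3.01 FPKM, against 0.295 FPKM over the late controls.

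**Figure D2:**
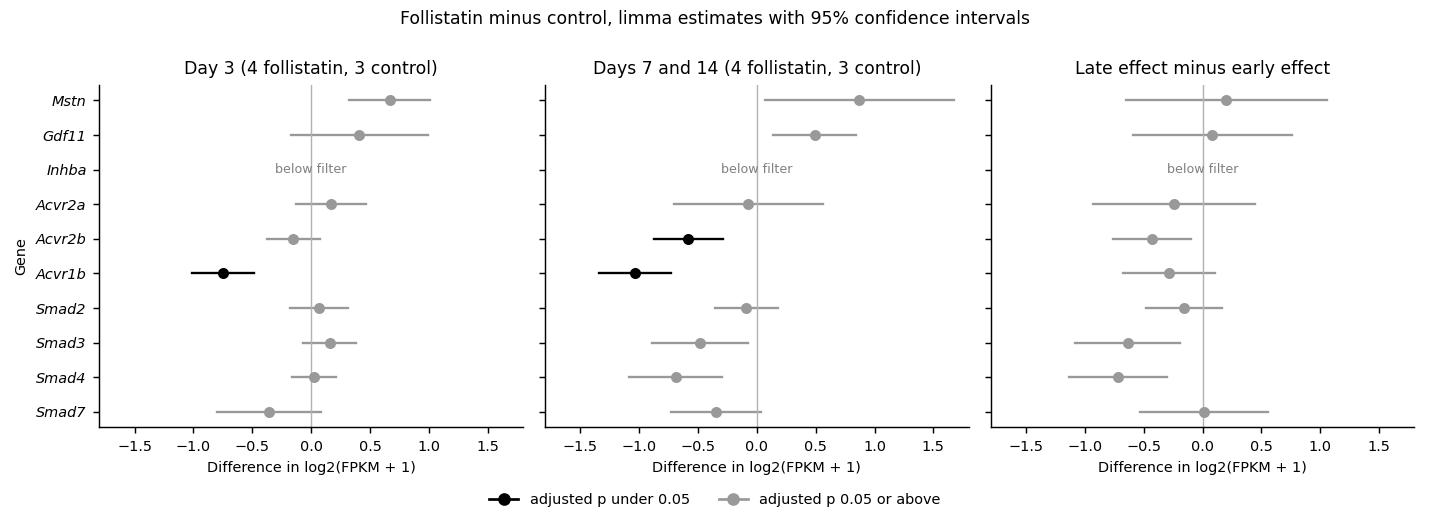
Follistatin minus control in log2(FPKM + 1) for each gene, as limma estimates (points) with 95% confidence intervals (lines), at day 3, in the late set, and as the late effect minus the early effect. Black marks an adjusted p under 0.05, which Acvr1b reached in both sets (-0.75 and -1.03) and Acvr2b in the late set (-0.58), while no difference between the sets reached it.

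Among the ligands, Mstn stood higher with follistatin at both times without passing the test. Mstn encodes myostatin, which muscle fibres secrete and which limits their growth, and it lies on chromosome 1 (53061640 to 53068079, plus strand). At day 3 the controls held 17.1, 16.3 and 18.05 FPKM and the follistatin libraries 37.9, 25.5, 26.1 and 23.5 FPKM. Every follistatin library lay above every control, and replicate 1 was far above the other 3. The means were 17.1 ± 0.876 FPKM (SD, n = 3) and 28.2 ± 6.51 FPKM (SD, n = 4), 1.65-fold apart, with a log2 difference of 0.67 (95% confidence interval 0.32 to 1.01, limma adjusted p = 0.0811). The gene was called with robust eBayes (limma adjusted p = 0.0404), without small RNA genes (0.0365) and without follistatin replicate 1 (log2 difference 0.52, limma adjusted p = 0.045). Late controls held 12.9 and 20.2 FPKM at day 7 and 23.7 FPKM at day 14. The follistatin libraries held 18.3 and 39.8 FPKM (day 7), then 52.8 and 36.1 FPKM (day 14). Here the groups overlapped through follistatin day 7 replicate 1, which lay between the controls. The late log2 difference was 0.87 (95% confidence interval 0.07 to 1.67, limma adjusted p = 0.15). Without that library it was 1.16 and was called (limma adjusted p = 0.0402), and with all 14 libraries in 1 fit it was also called (limma adjusted p = 0.0496).

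Gdf11, whose product is the closest relative of myostatin, stood in the same direction at a lower level. It lies on chromosome 10 (128882295 to 128891718, minus strand). At day 3 the controls held 2.59, 1.64 and 4.33 FPKM and the follistatin libraries 5.05, 4.61, 3.61 and 2.71 FPKM, with overlap. The log2 difference was 0.41 (95% confidence interval -0.17 to 0.99, limma adjusted p = 0.509). It was 0.17 without control replicate 2 and 0.67 without control replicate 3. The late controls of Gdf11 held 2.59, 3.07 and 2.76 FPKM and the follistatin libraries 3.11 and 4.86 FPKM (day 7), then 5.23 and 4.44 FPKM (day 14). All 4 lay above the controls, the lowest by a narrow margin. The difference of 0.49 did not pass (95% confidence interval 0.14 to 0.85, limma adjusted p = 0.0921). It was called with quantile normalization (0.60, limma adjusted p = 0.0432) and without follistatin day 7 replicate 1 (0.62, 0.0244).

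Inhba encodes the beta A chain that pairs to form activin A. It was the lowest of the 10 genes in every group. Its level ranged from 0.165 to 0.840 FPKM in the controls of day 3 and from 0.129 to 0.876 FPKM in the follistatin libraries. Later it ranged from 0.310 to 0.538 FPKM against 0.240 to 0.484 FPKM. The groups overlapped in both sets. With no filter on low values the log2 differences were 0.02 at day 3 (95% confidence interval -0.47 to 0.51, limma adjusted p = 0.98) and -0.03 in the late set (-0.24 to 0.18, limma adjusted p = 0.893). Inhba lies on chromosome 13 (16011851 to 16031621, plus strand).

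Of the Smad genes, Smad4 and Smad3 stood lower with follistatin in the late set but did not pass the test. Smad4 encodes the partner that SMAD2 and SMAD3 need in the nucleus, which the BMP branch also uses, and lies on chromosome 18 (73639009 to 73703780, minus strand). At day 3 it was nearly level, at 23.0, 23.7 and 24.3 FPKM in the controls and 25.2, 23.996, 21.4 and 25.9 FPKM with follistatin. The log2 difference was 0.03 (95% confidence interval -0.16 to 0.21, limma adjusted p = 0.922). Smad4 in the late controls was at 23.4, 19.8 and 23.7 FPKM and the follistatin libraries 10.8 and 15.6 FPKM (day 7), then 16.8 and 11.3 FPKM (day 14). All follistatin libraries lay below all controls, with means 1.64-fold apart (22.3 ± 2.15 FPKM, SD, n = 3, and 13.6 ± 3.04 FPKM, SD, n = 4). The log2 difference was -0.69 (SE 0.17, limma adjusted p = 0.0572). Smad4 was called with a mean of at least 5 FPKM (limma adjusted p = 0.039), robust eBayes (0.0397), without small RNA genes (0.0353) and with all 14 libraries in 1 fit (0.00497).

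Smad3 encodes a signal-carrying Smad that binds DNA directly and lies on chromosome 9 (63646767 to 63757994, minus strand). At day 3 the controls held 24.9, 26.3 and 26.3 FPKM and the follistatin libraries 29.2, 34.0, 25.4 and 27.7 FPKM. These groups overlapped (log2 difference 0.16, limma adjusted p = 0.513). Smad3 in the late controls was at 35.8, 31.8 and 34.4 FPKM, and the follistatin libraries 27.3 and 29.0 FPKM (day 7), then 24.4 and 17.2 FPKM (day 14). No late library overlapped, and the 2 libraries of day 14 were the lowest. The log2 difference was -0.48 (95% confidence interval -0.89 to -0.07, limma adjusted p = 0.128). It was called with all 14 libraries in 1 fit (0.0371), and it was -0.25 with the day 7 libraries alone.

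Smad2, the other signal-carrying Smad, lies on chromosome 18 (76241580 to 76310963, plus strand). It ranged from 2.44 to 3.24 FPKM in the controls of day 3 and from 2.97 to 3.13 FPKM with follistatin. Later it ranged from 2.52 to 2.58 FPKM in the controls and from 1.88 to 2.61 FPKM with follistatin. The log2 differences were 0.07 (95% confidence interval -0.18 to 0.32, limma adjusted p = 0.823) and -0.09 (-0.35 to 0.18, limma adjusted p = 0.625).

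Smad7, the inhibitory Smad, lies on chromosome 18 (75367529 to 75395935, plus strand). At day 3 it was at 3.14, 1.71 and 2.37 FPKM in the controls and 1.92, 2.12, 1.29 and 1.24 FPKM with follistatin. The late values were 2.56, 1.69 and 2.01 FPKM in the controls and 1.95, 1.40, 1.32 and 1.05 FPKM with follistatin. The groups overlapped in each set, with the follistatin means lower. The log2 differences were -0.36 (95% confidence interval -0.80 to 0.08, limma adjusted p = 0.429) and -0.35 (-0.73 to 0.04, limma adjusted p = 0.211). The first was -0.21 without control replicate 1 and ranged to -0.51 without control replicate 2.

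Counted together, limma called 1 of the 9 tested genes at day 3, lower with follistatin, where it called 1.49% of all genes tested, 0.568% in that direction. It called 2 of 9 in the late set, both lower, where it called 5.5% of all genes, 3.27% in that direction. At an unadjusted p under 0.05 there were 2 of the 9 at day 3, against 15.2% of all genes, and 6 of the 9 in the late set, against 28.3%. The groups did not overlap for 2 of the 9 genes at day 3, against 15.1% of all genes. These were Mstn, higher, as 8.31% of all genes were, and Acvr1b, lower, as 6.8% were. They did not overlap for 5 of the 9 in the late set, against 30.4% of all genes. These were Gdf11, higher, as 8.96% of all genes were, and Acvr2b, Acvr1b, Smad3 and Smad4, lower, as 21.5% were. The median log2 difference over the 9 genes was 0.07 at day 3 and -0.35 in the late set, beside 0.01 and -0.09 over all genes tested.

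The authors' deposited table of Cuffdiff tests, whose arms are named MCS and FST, marked more of these genes. Its fold changes are FST over MCS, and the labels do not spell out MCS. For day 3 the authors' deposited table marked 3 of the 10 genes as significant, against 6.25% of the genes it tested. These were Mstn (log2 fold change 0.68, q = 0.00191), Acvr1b (-0.82, q = 0.00191) and Smad7 (-0.60, q = 0.0417) in the authors' deposited table. For the late set the authors' deposited table marked 6 of 10, against 17.8% of the genes it tested. Mstn (0.95, q = 0.000894) and Gdf11 (0.64, q = 0.0432) were higher there, and Acvr2b (-0.90, q = 0.000894), Acvr1b (-1.12, q = 0.000894), Smad3 (-0.49, q = 0.0339) and Smad4 (-0.73, q = 0.000894) were lower in the authors' deposited table. Inhba was not tested in the authors' deposited table in either set.

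Whether the follistatin effect itself differed between day 3 and the late set was tested with an interaction term fitted on the 14 libraries together. None of the 9 genes passed with limma, which called 8 of 10643 genes (0.0752%). At an unadjusted p under 0.05 there were 3 of the 9 genes, against 15.3% of all genes. Smad4 had a late effect lower by 0.72 on the log2 scale (95% confidence interval of the difference -1.13 to -0.30, limma adjusted p = 0.179). For Smad3 the difference was -0.64 (-1.08 to -0.19, limma adjusted p = 0.223) and for Acvr2b -0.43 (-0.76 to -0.10, limma adjusted p = 0.239). For Acvr1b it was -0.29 (-0.68 to 0.10, limma adjusted p = 0.452) and for Mstn 0.20 (-0.65 to 1.06, limma adjusted p = 0.826). The median over all genes was -0.11, and it was 0.0019 after rescaling by the median ratio. A larger effect at the later times was therefore not shown for any of the 10 genes.

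The order of the levels by mean FPKM was not the same in the 4 groups. By mean, Acvr1b stood above Mstn in both control groups and below it in both follistatin groups. In the late controls those means were nearly equal, at 19.4 FPKM for Acvr1b and 18.9 FPKM for Mstn. Mstn was the higher there in control day 7 replicate 2 (20.2 against 17.7 FPKM) and control day 14 replicate 1 (23.7 against 20.4 FPKM). In the controls of day 3 the order from the highest was Acvr1b, Smad3, Smad4, Mstn, Acvr2a, Acvr2b, Smad2, Gdf11, Smad7 and Inhba. Neighbours whose libraries overlapped there were Acvr2a and Acvr2b, Smad2 and Gdf11, and Gdf11 and Smad7. With follistatin at day 3 the first 4 were Smad3, Mstn, Smad4 and Acvr1b, and each overlapped with the next. In the late controls Smad3 was first (34.0 FPKM on average), Smad4, Acvr1b and Mstn followed with overlap, and Gdf11, Acvr2b, Smad2 and Smad7 overlapped from each to the next. With follistatin in the late set Mstn was first (36.8 ± 14.2 FPKM, SD, n = 4), overlapping with Smad3, and Acvr2b was ninth, overlapping with Smad7. Control levels of the receptors also differed between the sets. Acvr1b was at 34.9 FPKM in the controls of day 3 and 19.4 FPKM in those of the late set, and Acvr2b at 6.47 and 2.59 FPKM. The days and the sets of libraries cannot be told apart in that difference, which was not tested.

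**Figure D3:**
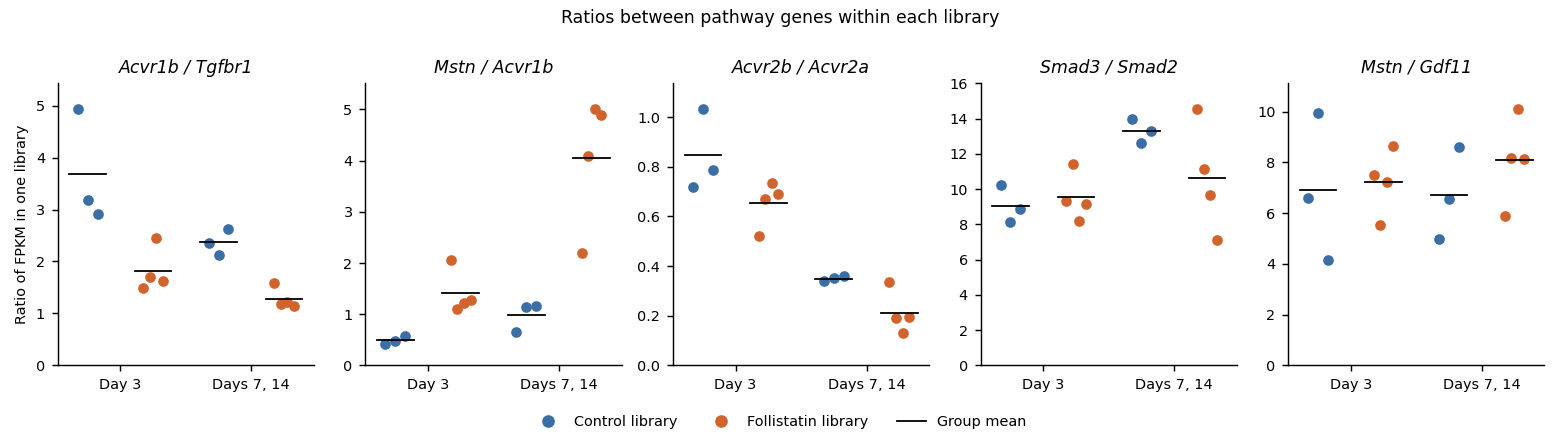
Ratios of the FPKM of paired genes within each library (vertical axes, each from 0), by set, with 1 point per library (blue, control; orange, follistatin) and a line at the group mean. The ratio of Acvr1b to Tgfbr1 is lower and that of Mstn to Acvr1b higher in every follistatin library than in every control of the same set.

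Ratios between genes of 1 library do not depend on how that library was scaled. Tgfbr1, the other type I receptor gene for myostatin, was not called in either set (log2 differences of 0.21 and -0.19, limma adjusted p = 0.569 and 0.441). Acvr1b exceeded Tgfbr1 by 2.91-fold to 4.93-fold in the controls of day 3 and by 1.49-fold to 2.45-fold in the follistatin libraries. Its late values were 2.13 to 2.63 in controls and 1.15 to 1.59 with follistatin. Mstn over Acvr1b, a ligand over its receptor, was 0.427 to 0.582 in the controls of day 3 and 1.104 to 2.05 with follistatin. At day 3 neither gene overlapped, Mstn being higher and Acvr1b lower, so their ratio had to separate and adds nothing to them. Late values of that ratio were 0.648 to 1.16 in controls and 2.20 to 5.01 with follistatin. The ratio of Acvr2b to Acvr2a was 0.720 to 1.03 against 0.522 to 0.736 at day 3, with overlap. Late values were 0.340 to 0.359 in controls and 0.132 to 0.337 with follistatin, without overlap but only narrowly so for follistatin day 7 replicate 1. The ratio of Mstn to Gdf11 overlapped in both sets (4.17 to 9.97 against 5.53 to 8.66, and 4.99 to 8.60 against 5.90 to 10.1). The ratio of Smad3 to Smad2 overlapped as well (8.14 to 10.2 against 8.22 to 11.4, and 12.6 to 14.0 against 7.14 to 14.5). The pairs were chosen after the levels were known, so these ratios are descriptions without a test.

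Of 85 other genes of the pathway in the files, 59 were tested at day 3, where 2 rose and 2 fell, against 0.923% of all genes called higher and 0.568% lower. Late, 61 were tested, 3 rose and 6 fell, against 2.24% of all genes called higher and 3.27% lower. Their median log2 difference was -0.02 at day 3 and -0.20 in the late set, where it was -0.09 over all genes tested. The treatment's own gene Fst was 1 of those that rose in each set. The others that rose late were Igsf1, which passed the filter only through its follistatin libraries, and Inha, at the threshold (limma adjusted p = 0.0499).

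Genes commonly induced through SMAD2 and SMAD3 were read as a list. The list was chosen with earlier results of these data known, so its counts are not an independent readout of the pathway. Of 20 tested at day 3, 1 fell, 0 rose and 19 did not pass, beside the 0.568% of all genes called lower. That was Skil, which encodes SnoN, a repressor of Smads that the pathway itself induces. It fell from 6.81 ± 0.272 FPKM (SD, n = 3) to 3.18 ± 0.824 FPKM (SD, n = 4), with a log2 difference of -0.92 (limma adjusted p = 0.0271). Of 21 tested in the late set, 4 fell, 0 rose and 17 did not pass, beside the 3.27% of all genes called lower there. Skil fell again, from 5.02 ± 0.948 to 1.60 ± 0.235 FPKM (log2 difference -1.20, limma adjusted p = 0.00737). Pmepa1, a membrane protein that binds SMAD2 and SMAD3 and dampens the signal, fell from 3.65 ± 0.683 to 1.40 ± 0.327 FPKM (-0.95, limma adjusted p = 0.0215). Ldlrad4, a relative of Pmepa1, fell from 3.77 ± 0.428 to 1.77 ± 0.522 FPKM (-0.80, limma adjusted p = 0.043). The transcription factor gene Bhlhe40 fell from 54.1 ± 7.74 to 26.6 ± 2.24 FPKM (-0.99, limma adjusted p = 0.00991). The matrix-associated genes Ctgf and Col1a1 did not pass in the late set, with log2 differences of -0.22 (limma adjusted p = 0.625) and -0.28 (0.678). Timp1 and Postn of the same list stood higher late without passing, by 0.68 (limma adjusted p = 0.0974) and 0.36 (0.593). Differences above 0 were found for 6 of the 20 at day 3 and 7 of the 21 late. At an unadjusted p under 0.05 there were 6 of 20 at day 3, against 15.2% of all genes, and 7 of 21 late, against 28.3%. The list's median was -0.04 at day 3 and -0.22 late. Skil's call at day 3 ended without any 1 control (limma adjusted p of 0.0878 to 0.121), without follistatin replicate 1 or 4 (0.0605 and 0.0622) and with no filter on low values (0.0637), and its late call held without any 1 library (0.0129 to 0.0422). Of the other late calls, those of Pmepa1, Ldlrad4 and Bhlhe40 ended without control day 7 replicate 1 (0.133, 0.184 and 0.0636) and, like that of Skil, with the day 7 libraries alone (0.115 to 0.192). Those of Pmepa1 and Ldlrad4 also ended without control day 7 replicate 2 (0.0902 and 0.142) or control day 14 replicate 1 (0.0544 and 0.128). That of Ldlrad4 ended further without follistatin day 7 replicate 2 (0.0543) or follistatin day 14 replicate 1 (0.0691), with day as a covariate (0.0501) and with no filter (0.0855).

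**Figure D4:**
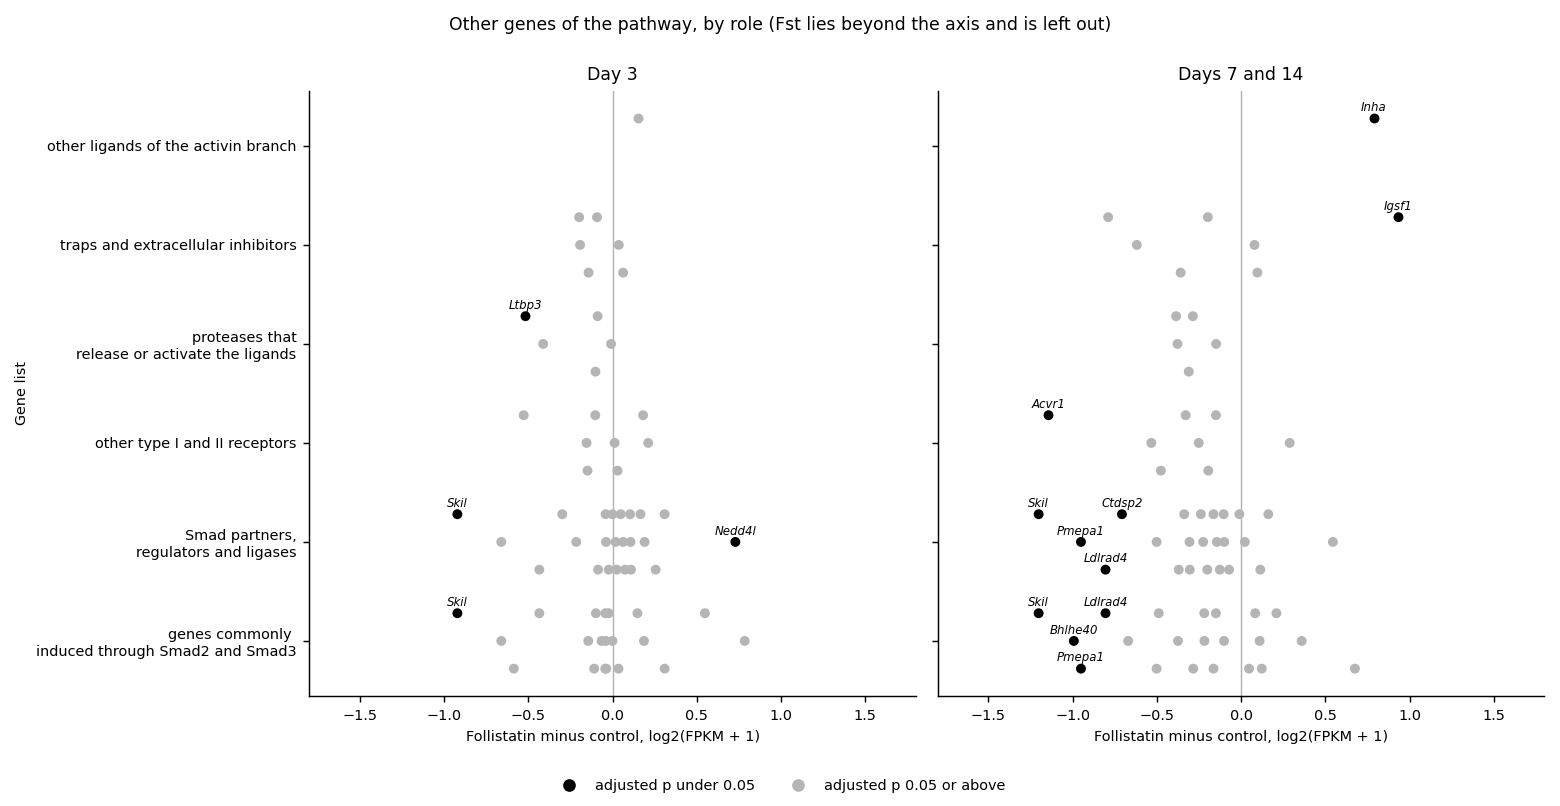
Follistatin minus control in log2(FPKM + 1) for the tested genes of 6 lists (rows), at day 3 and at days 7 and 14, with 1 point per gene, spread vertically for display, black for an adjusted p under 0.05, and Fst left out because it lies beyond the axis. Most points are grey, and at day 3 they lie on both sides of 0. In the late set 0 of 5 proteases and latency proteins and 1 of 8 other receptors lie above 0. So do 4 of 23 Smad partners, 7 of 21 induced genes, 4 of 8 traps with Fst counted, and the 1 ligand tested. The late black points Skil, Pmepa1, Ldlrad4, Bhlhe40, Ctdsp2 and Acvr1 lie below 0 while Inha and Igsf1 lie above it.

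Of 23 Smad partners, regulators and ligases tested at day 3, Nedd4l rose, Skil fell and 21 did not pass. Among all genes, 0.923% were called higher and 0.568% lower. Nedd4l encodes a ubiquitin ligase that marks activated SMAD2 and SMAD3 for breakdown, and it rose from 3.86 ± 0.264 FPKM (SD, n = 3) to 7.07 ± 0.732 FPKM (SD, n = 4), a log2 difference of 0.73 (limma adjusted p = 0.0133). Of 23 tested late, where 3.27% of all genes were called lower, 19 did not pass, 0 rose and 4 fell. Beside Skil, Pmepa1 and Ldlrad4, which stand on both lists, these held Ctdsp2, a phosphatase gene whose product acts on Smads, which fell from 50.7 ± 3.14 to 30.8 ± 4.00 FPKM (-0.71, limma adjusted p = 0.0234). The call of Nedd4l ended without control replicate 1 or 2 (limma adjusted p = 0.0658 and 0.0735) and with all 14 libraries in 1 fit (0.0501). That of Ctdsp2 ended without any 1 control (0.0783 to 0.141), without follistatin day 14 replicate 1 (0.0547) and with the day 7 libraries alone (0.252).

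Of 8 other type I and II receptors tested, 0 passed at day 3 with limma. At an unadjusted p under 0.05 there was 1, against 15.2% of all genes. In the late set Acvr1 fell while 7 did not pass, beside the 3.27% of all genes called lower. Acvr1 encodes ALK2, a type I receptor of the BMP branch that activin A also binds. It fell from 9.31 ± 0.599 to 3.73 ± 0.891 FPKM (log2 difference -1.14, limma adjusted p = 0.0109). That call ended without control day 7 replicate 1 (0.0696), without control day 14 replicate 1 (0.0623) and with the day 7 libraries alone (0.18).

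Of the other ligand chains, only Inha, the inhibin alpha chain that diverts activin beta chains into inhibins, was high enough to be tested. It was not called at day 3 (log2 difference 0.15) and rose in the late set from 4.01 ± 1.43 to 7.47 ± 0.868 FPKM (0.79, limma adjusted p = 0.0499). That value lies at the threshold, and the call ended without 6 of the 7 late libraries taken 1 at a time (limma adjusted p of 0.07 to 0.21), holding without control day 7 replicate 2 (0.0327). It also ended with day as a covariate (0.0523), no filter (0.094) and the day 7 libraries alone (0.316).

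Of the traps and extracellular inhibitors, 7 were tested at day 3 and 8 in the late set. Besides Fst, only Igsf1 rose, in the late set, where 2.24% of all genes were called higher. Igsf1 went from 0.759 ± 0.0886 to 2.37 ± 0.382 FPKM (0.93, limma adjusted p = 0.0129). It passed the filter only through its follistatin libraries, and the call ended without any 1 of the 3 controls (0.0529 to 0.0878) and with the day 7 libraries alone (0.172). Of 5 tested genes for proteases and latency proteins that release or hold these ligands, Ltbp3, which holds latent ligands in the matrix, fell at day 3 from 12.4 ± 0.684 to 8.37 ± 0.484 FPKM (-0.52, limma adjusted p = 0.0201). Its call ended without any 1 control (0.0615 to 0.109) or without follistatin replicate 3 (0.0541). At day 3, 0.568% of all genes were called lower. With limma 0 of the 5 passed in the late set, and 2 did at an unadjusted p under 0.05, against 28.3% of all genes.

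Genes whose pattern was most like that of a member were sought over 10088 genes and the 14 libraries, as Pearson's r of log2(FPKM + 1) after the mean of each set was taken off. For Mstn these were Smyd1 (r = 0.94), Magt1 (0.93), Tmtc1 (0.93), Neto2 (0.92) and Usp28 (0.92). For Acvr2b they were Abcb1b (0.98), Pnisr (0.97), Tab2 (0.97), Ppm1a (0.96) and Ank (0.96). For Smad7 they were Zkscan17 (0.92), Hoxa7 (0.91), Ccdc6 (0.90), Gabbr1 (0.89) and Chek2 (0.88). Among the members themselves r was 0.84 for Smad4 and Acvr2b, 0.82 for Acvr1b and Acvr2b, 0.78 for Gdf11 and Mstn, and -0.65 for Acvr1b and Mstn. Only the mean of each set was taken off, so these r still carry the difference between follistatin and control libraries. Differences in depth and scaling between libraries also enter them. They are descriptions of likeness.

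Markers of other cells of the muscle were read beside these results. In bulk muscle, fewer cells of a type and less RNA per cell cannot be told apart. Summed FPKM of 8 endothelial markers lay at 151 to 165 in the controls of day 3 and at 126 to 141 with follistatin, and at 150 to 199 against 73.5 to 126 in the late set. Of these 8 markers 0 passed with limma at day 3 (3 at an unadjusted p under 0.05, against 15.2% of all genes). Of the same 8, Tek fell in the late set (8 passed at an unadjusted p under 0.05), where 5.5% of all genes were called and 28.3% passed unadjusted. The median log2 difference of the 8 was -0.72, beside -0.09 over all genes. Summed FPKM of 7 smooth muscle and pericyte markers lay at 229 to 254 in the controls of day 3 and at 185 to 228 with follistatin, and at 126 to 176 against 40.8 to 104 in the late set. Limma called 0 of these 7 in either set. At an unadjusted p under 0.05, 5 passed at day 3 (15.2% of all genes) and 4 late (28.3%). Summed FPKM of 9 fibroblast and fibro-adipogenic progenitor markers overlapped in the late set (515 to 845 against 483 to 732), as did that of 8 macrophage markers (43.3 to 118 against 69.9 to 222). The sums of 7 satellite cell and myoblast markers lay at 22.3 to 26.1 in the late controls and at 17.9 to 21.7 with follistatin. Late, 4 of these 7 were tested and limma called 0. At an unadjusted p under 0.05, 2 passed, against 28.3% of all genes, and 2 of the 4 differences lay above 0. Of the markers of T, B and NK cells 0 of 5 reached the filter in either set. The part of these cells in the values of the receptor and Smad genes was not tested. The myofibre markers were the most abundant of the lists at day 3, with sums of 90689 to 98701 FPKM in controls and 78748 to 92464 FPKM with follistatin. Myh4, the gene of a fast myosin, is listed at 0 in every follistatin library of day 3, so those sums are not on 1 footing. Late, 8 of 8 myofibre markers are listed at 0 in every follistatin library and 5 of 8 in every control. The authors' deposited table marks all of these 8 in the late set as holding too many reads to be estimated, so no change of the fibres can be read from them.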

How the data were processed

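RNA-seq reads were aligned with TopHat to mm10 and FPKM were computed with Cuffdiff, per the submitters' processing notes; versions, annotation, counting mode and strand setting are not given in the sources used here. The deposited files give FPKM per gene and library, and 2 tables in which the authors pooled replicates and gave FPKM, a log2 fold change, a test score and p-values with q-values. Of the deposited log2 fold changes and q-values, only those of the 10 genes are quoted, and the deposited test score was not used.

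Of 24386 genes listed, 27 with symbols turned into dates were left out. FPKM + 1 was taken to log2, and genes averaging 1 FPKM or more in a set were tested with limma 3.58.1 (lmFit, eBayes with trend, R 4.3.3), with Benjamini-Hochberg adjustment over all genes tested. Genes that the authors' tables mark as having too many reads (HIDATA) were left out, 4 at day 3 and 31 in the late set. The fit was tested on simulated data. FPKM keep no read total, so precision rests on the spread between libraries. Gene positions are from GENCODE M21 on GRCm38.

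The 10 genes and all gene lists were chosen with earlier results of these data known. Named genes are the 10, the called genes of each list (at most 4 with the smallest p per direction), and the 5 genes most like Mstn, Acvr2b and Smad7. Outside this rule, Tgfbr1, Ctgf, Col1a1, Timp1, Postn, Tek, Myh4 and Orc4 were named after their values were seen. Alternatives were a pseudocount of 0.1, no filter, a mean of at least 5 FPKM, median-ratio and quantile scaling, robust eBayes, a replicate block (which leaves out follistatin libraries with no control of their number), all 14 libraries in 1 fit, no small RNA genes, day as a covariate, day 7 alone and leaving out each library. Keeping the HIDATA genes was added after the data were seen.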

Additional observations from a re-analysis of the deposited data

How the results depend on the processing

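Of the values for single genes, 367 kept their direction and side of the threshold under the alternatives other than leaving out 1 library in turn, 28 were no longer called, 9 became called and 7 changed sign. With 1 library left out in turn, 283 kept both, 46 were no longer called, 3 became called and 11 changed sign. Those that kept both include values that were not called in either fit. At day 3, leaving out small RNA genes gave 266 called genes and 2 of the 10 genes, and robust eBayes also gave 2 of the 10. In the late set the called genes numbered 284 with no filter, 2098 with all 14 libraries in 1 fit, 963 without small RNA genes and 30 with the day 7 libraries alone. The called genes among the 10 were then 1 with no filter, 5 with all 14 libraries, 1 with day as a covariate and 0 with day 7 alone, against 2. For the difference between sets, 1 gene was called with no filter, 5 after median-ratio rescaling and 23 when the genes with too many reads were kept, against 8. Leaving out 1 library gave 39 to 165 genes and 0 to 1 of the 10 at day 3, 43 to 907 genes and 0 to 3 of the 10 in the late set, and 1 to 33 genes for the difference.

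Same-numbered libraries did not deviate together (r of -0.0492, -0.0568 and -0.0321 at day 3 and 0.0172 at day 7). With 2 libraries per arm at day 7 the deviations mirror each other, and day 14 has 1 control. Whether the numbers pair the libraries therefore cannot be told from these values. The replicate block also leaves out follistatin day 3 replicate 4 and follistatin day 14 replicate 2, which have no control of their number. With it, 19 genes and 0 of the 10 were called at day 3, 164 genes and 1 of the 10 in the late set, and 0 genes for the difference. Without those libraries and with no block, 165 genes and 1 of the 10 were called at day 3, and 480 genes and 1 of the 10 in the late set. Calls lost with the block were Acvr1b (limma adjusted p = 0.182), Skil (0.132), Nedd4l (0.164) and Ltbp3 (0.183) at day 3, and late Acvr2b (0.113), Skil (0.0521), Ldlrad4 (0.0654), Ctdsp2 (0.063), Igsf1 (0.0588) and Inha (0.112).

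The sign of small effects turned for Smad4 at day 3 with quantile normalization (-0.0168) and without follistatin replicate 4, with or without the replicate block (-0.00959), for late Acvr2a with median-ratio (0.0237) and quantile scaling (0.0375), and for late Smad2 with quantile scaling (0.0216). For the difference between sets it turned for Gdf11 with the block (-0.0614, against -0.0528 without follistatin day 3 replicate 4 and no block) and Smad7 with a pseudocount of 0.1 (-0.00494). Leaving out 1 library gave ranges across 0 for Smad2 (-0.0159 to 0.134) and Smad4 (-0.00959 to 0.079) at day 3, late Acvr2a (-0.24 to 0.16), and the difference for Mstn (-0.0352 to 0.495), Gdf11 (-0.18 to 0.33) and Smad7 (-0.14 to 0.17). The cause was not tested. Low levels limit Inhba most, since it stayed under the filter in each set.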

Other observations

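Lists of other cell types not described above stood as follows. Summed FPKM of 5 Schwann cell markers lay at 21.2 to 57.5 in the late controls and at 8.70 to 20.3 in the late follistatin libraries, without overlap, and at 17.5 to 21.99 against 16.7 to 31.1 at day 3. Of the 3 Schwann markers tested, limma called 0 in the late set. At an unadjusted p under 0.05, 2 passed, against 28.3% of all genes. Summed FPKM of 4 tendon markers overlapped in the late set (77.7 to 118 against 43.5 to 93.3), as did that of 4 adipocyte markers (3.12 to 7.07 against 1.08 to 7.32). The part of these cells in the values of the 10 genes was not tested.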
